A study of Mus musculus with 3 samples.

Results

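Interstitial progenitors, the stromal cells of mouse inguinal white fat that hold RNA of Pi16 and Dpp4, were described from 3 single-cell libraries of the stromal vascular fraction, the mixture of cells left when dissociated fat is freed of its adipocytes. Members were chosen by their raw counts of unique molecular identifiers (UMIs, each standing for a captured RNA molecule). A barcode needed at least 500 detected genes, at most 15% mitochondrial UMIs, at least 20 UMIs of Col1a1, Col1a2, Col3a1 and Dcn together, and 0 UMIs of Ptprc, Pecam1 and Rgs5, which mark leukocytes, endothelium and pericytes. Barcodes that met these limits are called stromal here. Members among them had at least 2 UMIs of Pi16 and Dpp4 together and at most 1 UMI each of Col15a1, of Gdf10 with Fmo2, and of Lcn2 with Cxcl5. The rule chose 1170 of 2469 stromal barcodes and of 20667 barcodes in all.

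The groups were mice exposed to 4 C for 3 days (the cold library), mice injected intraperitoneally with CL 316,243 at 1 mg/kg for 3 days (the CL library), and mice given saline (the saline library). CL 316,243 is an agonist selective for the β3-adrenergic receptor, which is best known from adipocytes. The strain was C57BL/6 throughout, and each group was 1 library made with 10x Chromium 3' v3 chemistry after dissociation with a Miltenyi kit. The sources used here do not give the number, age or sex of the animals behind a library, or say if the cold mice had injections. With 1 library per group no test was run and no p-value is given, and a difference between treatments cannot be told apart from one between animals or cell preparations. Each interval in parentheses is at the 95% level and covers counting error alone.

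Interstitial progenitors are fibroblast-like cells of the connective tissue sheath around fat, the reticular interstitium. In mouse they are known as an early stage that can give rise to committed preadipocytes and then to adipocytes. DPP4 is a dipeptidyl peptidase at the cell surface and PI16 a secreted peptidase inhibitor, and both mark these cells. Committed preadipocytes carry Icam1 and Col15a1, and a further stromal population carries F3, Gdf10 and Fmo2 and is known for holding back adipogenesis in its neighbours.

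The libraries held 19899223 UMIs in 5050 barcodes (cold), 29323106 in 7943 (CL) and 25875379 in 7674 (saline). Interstitial progenitors numbered 233 in the cold, 354 in the CL and 583 in the saline library, with 1646342, 2033920 and 3580184 UMIs in all and medians of 7141, 5769 and 6297 UMIs per barcode. Any pair of libraries had between 9 and 14 barcode sequences in common, and none of these was a member in both. Levels are in CPM, the UMIs of a gene per 1000000 UMIs summed over the members of a library. Ratios of levels are on the log2 scale, and a positive value of "cold over saline" means a higher level in the cold members.

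Pi16 (ENSMUSG00000024011, chr17:29317680-29330593, plus strand, GRCm38) and Dpp4 (ENSMUSG00000035000, chr2:62330073-62412231, minus strand) chose the members, so their levels are a description. Pi16 stood at 3278 CPM in the cold, 2057 CPM in the CL and 2559.9 CPM in the saline members. Dpp4 stood at 637 CPM in the cold, 429 CPM in the CL and 505 CPM in the saline members. UMIs of both genes were present in 95.3% (91.7 to 97.6) of the cold, 83.3% (79.0 to 87.1) of the CL and 91.1% (88.5 to 93.3) of the saline members, at the unequal depths given above. The median member had 27, 12 and 16 UMIs of Pi16 and Dpp4 together in the cold, CL and saline libraries.

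The other 4 markers of these cells were not used by the rule, though they were counted in the same cells. Sema3c, a secreted semaphorin, stood at 659 CPM in the cold, 512 CPM in the CL and 715 CPM in the saline members. Smpd3, a neutral sphingomyelinase, stood at 659.6 CPM in the cold, 499 CPM in the CL and 518 CPM in the saline members. Pcsk6, a proprotein convertase, stood at 382 CPM in the cold, 182 CPM in the CL and 396 CPM in the saline members. Mfap5, a glycoprotein of elastin-associated microfibrils, stood at 2496 CPM in the cold, 1234 CPM in the CL and 1985 CPM in the saline members. All 4 were lowest in the CL members, although for Smpd3 the CL and saline intervals overlapped. Barcodes outside the stromal gate held between 6.98 CPM (Pcsk6, CL) and 104 CPM (Mfap5, cold) of these genes, below the members in every library.

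**Figure D1:**
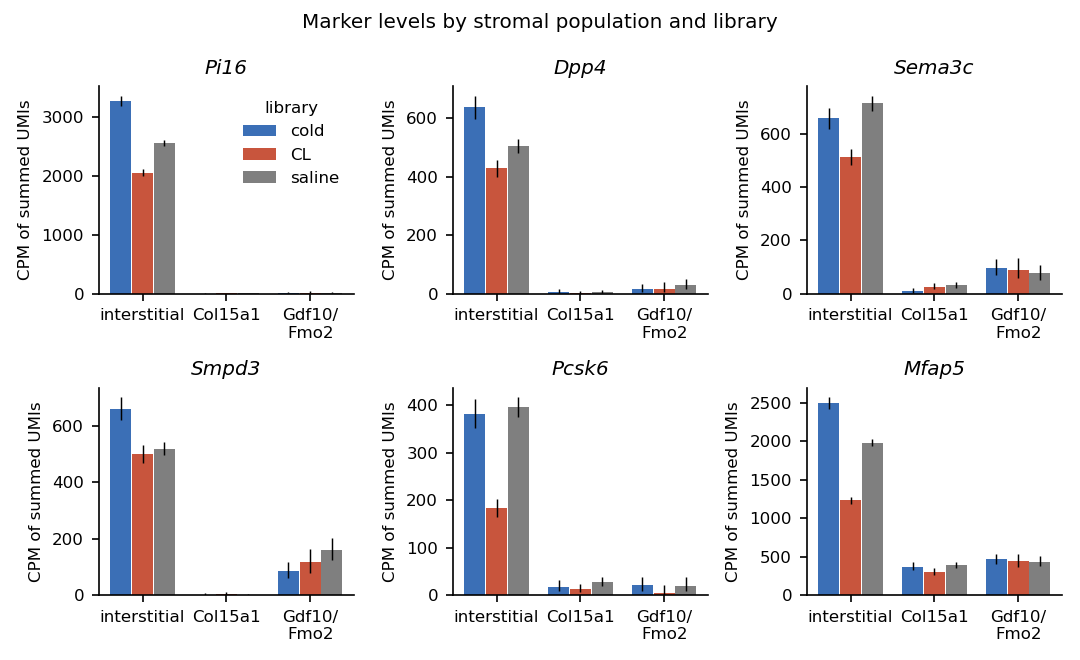
Levels of the 6 markers in CPM of summed UMIs, by stromal population and library, with exact Poisson 95% intervals as error bars. Among interstitial progenitors Sema3c, Smpd3, Pcsk6 and Mfap5 were lowest in the CL library, and all 4 were lower in Col15a1 and Gdf10/Fmo2 barcodes of each library.

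Markers of most other cell types were near 0 in the members. Summed over 3 endothelial genes, the level was 3.64 CPM in the cold, 3.44 CPM in the CL and 2.79 CPM in the saline members. Epithelial markers were at 0 UMIs for 4 of 4 genes in the cold library and for 3 of 4 in the CL and in the saline library, and 4 adipocyte markers summed to less than 1 CPM in each. The 6 immune markers summed to 25.5 CPM in the cold, 96.4 CPM in the CL and 81.0 CPM in the saline members, with Cd3e of T cells at 0 UMIs in all 3. Haemoglobin RNA of red cells summed to 919.6 CPM in the cold, 2222 CPM in the CL and 1416 CPM in the saline members, and its part in the results was not tested. The 7 markers of committed preadipocytes summed to 533 CPM in the cold, 608 CPM in the CL and 493 CPM in the saline members, against 12004, 7764 and 8996 CPM in the cold, CL and saline Col15a1 barcodes. The rule's limits on Ptprc, Pecam1 and Col15a1 partly fixed the immune, endothelial and preadipocyte sums, so these sums are a description. The 6 mesothelial markers summed to 17.0 CPM in the cold, 14.7 CPM in the CL and 3.35 CPM in the saline members. Outside the stromal gate they summed to 0.878, 1.44 and 1.97 CPM in the cold, CL and saline libraries. The 3 muscle markers summed to 20.6 CPM in the CL members and 8.15 CPM outside the gate. In the cold and saline libraries they were lower in the members than outside.

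The threshold on Pi16 and Dpp4 lay on a gradient. Over the 3 libraries, the 36 barcodes just inside it, with exactly 2 UMIs, had 432 CPM of Sema3c, 1069 CPM of Mfap5 and 302 CPM of Smpd3. The 39 barcodes just outside it, with 1 such UMI and the other limits kept, had 149.6 CPM of Sema3c, 715 CPM of Mfap5 and 60.8 CPM of Smpd3. The 840 members with over 10 such UMIs had 698 CPM of Sema3c, 2089 CPM of Mfap5 and 582 CPM of Smpd3.

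Against other stromal barcodes the members stood out in a set of identity genes, which the choice of cells partly fixed, so these ratios are a description. Of 5453 tested genes, 95 (1.74%) were at least 2-fold higher than in all other stromal barcodes in each of the 3 libraries and 127 (2.33%) at least 2-fold lower. Against Col15a1 barcodes (71 cold, 113 CL and 184 saline) these shares were 6.22% higher and 3.32% lower, and against Gdf10/Fmo2 barcodes (71, 45 and 76) 3.36% higher and 2.44% lower. On the list of 39 tested interstitial genes, 34 were at least 2-fold higher than in Col15a1 barcodes in all 3 libraries. Bmp7, a bone morphogenetic protein, had log2 ratios over all other stromal barcodes of 3.62 in the cold, 2.88 in the CL and 2.87 in the saline library. Aldh1a3, which makes retinoic acid, had ratios of 2.99 in the cold, 1.82 in the CL and 3.74 in the saline library. Efhd1, a calcium-binding protein of mitochondria, had ratios of 3.80 in the cold, 1.91 in the CL and 2.87 in the saline library. Bmp3, a BMP family ligand, had ratios of 6.60 in the cold, 1.53 in the CL and 3.33 in the saline library, and Sbsn, suprabasin, of 4.99 in the cold, 1.14 in the CL and 3.81 in the saline library. The other stromal barcodes included 162 in the CL, 0 in the cold and 8 in the saline library that only the Lcn2 and Cxcl5 limit kept out. Pi16 stood in the other stromal barcodes at 270 CPM (cold), 675 CPM (CL) and 252.5 CPM (saline). The part of such barcodes in the CL ratios was not tested.

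Interstitial progenitors made up 47.4% (42.9 to 51.9) of the stromal barcodes in the cold, 39.8% (36.6 to 43.1) in the CL and 53.6% (50.6 to 56.6) in the saline library. The log2 ratio of shares was -0.18 (-0.33 to -0.02) for cold over saline, -0.43 (-0.57 to -0.29) for CL over saline and -0.25 (-0.43 to -0.07) for CL over cold. The CL value rested on the limit on Lcn2 and Cxcl5, an iron-binding acute-phase protein and a neutrophil attractant. That limit alone kept out 162 CL barcodes, against 0 cold and 8 saline barcodes. With it lifted, a choice made after these values were seen, the shares were 47.4% in the cold, 58.0% in the CL and 54.3% in the saline library. CL over saline then turned to 0.10 (-0.02 to 0.21), and CL over cold to 0.29 (0.14 to 0.45).

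**Figure D2:**
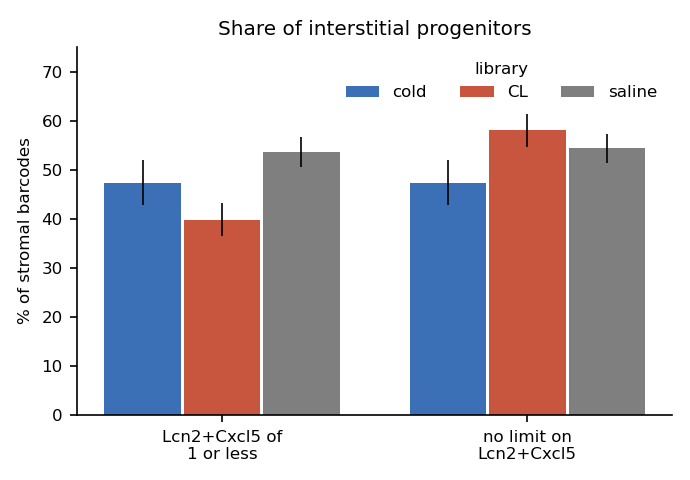
Share of interstitial progenitors among stromal barcodes in percent, with exact Clopper-Pearson 95% intervals, under the rule and with no limit on Lcn2 and Cxcl5. The CL value is the lowest of the 3 at 39.8% under the rule and the highest at 58.0% without that limit.

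The 162 CL barcodes kept out by this limit alone were set against the 354 CL members. They were chosen by their UMIs of Lcn2, an acute-phase gene, and Cxcl5, a chemokine. That choice partly fixed the contrast in related genes, so these ratios are a description. Of 22 tested stromal cytokines and chemokines 8 were at least 2-fold higher in the left-out barcodes and 0 lower, with a median of 0.36. Of 14 acute-phase and complement genes 3 were at least 2-fold higher and 0 lower, with a median of 0.10. Ccl2, an attractant of monocytes, stood at 1064 CPM in the left-out barcodes and 428 CPM in the CL members (1.31, 1.19 to 1.44). Saa3, an acute-phase serum amyloid, stood at 3360.0 CPM in the left-out barcodes and 766 CPM in the CL members (2.13, 2.05 to 2.22). Timp1, an inhibitor of matrix metalloproteinases, stood at 1654 CPM in the left-out barcodes and 449 CPM in the CL members, a ratio of 1.88. Prg4, the lubricating proteoglycan, stood at 651 CPM in the left-out barcodes and 199.6 CPM in the CL members (1.70, 1.53 to 1.88). Smpd3 stood at 190.2 CPM in the left-out barcodes and 499 CPM in the CL members (-1.39, -1.60 to -1.19). Of 5432 tested genes, 69 (1.27%) were at least 2-fold higher and 70 (1.29%) at least 2-fold lower in the left-out barcodes. Over 39 interstitial genes the median was -0.38, with 0 at least 2-fold higher and 3 at least 2-fold lower, and over 30 interferon response genes it was 0.52, with 1 higher. The left-out barcodes had a median of 7910.5 UMIs and the CL members 5769, and the part of depth was not tested.

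The comparison of cold with saline asks what 3 days at 4 C did to these progenitors. In the cold members 7 of 20 tested genes of the interferon list and both metallothioneins were called lower, while Cirbp, which mild cold induces, was called higher. A gene was called when it differed at least 2-fold and its interval left out equality, among genes with a mean of at least 20 CPM over both libraries. Of 5304 tested genes 60 (1.13%) were called, 23 higher (0.434%) and 37 lower (0.698%), and the median of all was 0.06.

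Interferon response genes form the antiviral programme that interferons switch on in cells that bear their receptors. Of 20 tested, 7 were called lower in the cold members and 0 higher, with a median of -0.53. Isg15, a ubiquitin-like protein (ENSMUSG00000035692, chr4:156199424-156200818, minus strand), stood at 17.0 CPM in the cold and 50.8 CPM in the saline members, a ratio of -1.58 from 28 and 182 UMIs. Irf7, the factor that amplifies type I interferon production, stood at 30.4 CPM in the cold and 129.6 CPM in the saline members, a ratio of -2.09 (-2.54 to -1.67). Ifit1, which binds foreign RNA ends, had 12 UMIs in the cold and 129 UMIs in the saline members (-2.31, -3.30 to -1.45). Ifi27l2a stood at 371 CPM in the cold and 879.6 CPM in the saline members (-1.25, -1.37 to -1.12). Cxcl10, an attractant of T cells, stood at 74.7 CPM in the cold and 179 CPM in the saline members (-1.26, -1.55 to -0.98). The list's median was -0.86 in Gdf10/Fmo2 barcodes, -0.51 in barcodes outside the stromal gate and -0.03 in Col15a1 barcodes.

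Mt1 (ENSMUSG00000031765, chr8:94179082-94180327, plus strand) and Mt2 encode metallothioneins, which bind zinc and copper and are induced by metals and glucocorticoids. Mt1 stood at 691 CPM in the cold and 1479 CPM in the saline members, a ratio of -1.10 (-1.19 to -1.01). Mt2 stood at 394 CPM in the cold and 857 CPM in the saline members, a ratio of -1.12. They were the 2 called members of the 13 tested genes of the glucocorticoid and metallothionein list, of which 10 had an interval below 0, with a median of -0.50. Mt1 had ratios of -1.65 in Col15a1 barcodes, -1.37 in Gdf10/Fmo2 barcodes and -1.60 outside the gate. The Mt1 promoter is shown because its short metal response element cores are what this family is known for. It is given 5' to 3' from RefSeq (GRCm38.p6, chr8:94178839-94179138, plus strand), with 250 bases before and 50 after the start of the gene. Capitals mark the 3 matches, on either strand, to TGCACNC or TGCGCNC.
Mt1: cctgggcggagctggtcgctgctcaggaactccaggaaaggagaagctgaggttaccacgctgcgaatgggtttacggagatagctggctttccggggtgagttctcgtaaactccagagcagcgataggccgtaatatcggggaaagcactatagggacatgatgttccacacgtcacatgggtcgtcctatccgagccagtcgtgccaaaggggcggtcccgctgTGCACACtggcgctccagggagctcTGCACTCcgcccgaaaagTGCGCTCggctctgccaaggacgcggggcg
The first form was in 12.6% and the second in 15.4% of 32851 such promoters, and a match is a description, not a site.

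Other genes were lower in the cold members too. Irs2, an adaptor of the insulin receptor, stood at 74.7 CPM in the cold and 177 CPM in the saline members (-1.25, -1.54 to -0.97). Timp1 stood at 10.9 CPM in the cold and 57.0 CPM in the saline members (-2.38, -3.17 to -1.69). Its 204 saline UMIs lay in 69 of 583 members, with 75 of them in 3. Cd44, the hyaluronan receptor, stood at 19.4 CPM in the cold and 41.3 CPM in the saline members (-1.09, -1.69 to -0.53). Saa3 was at 0 UMIs in the cold and 183 UMIs in the saline members. The log2 ratio was -4.81 when 3 counts are set for the 0, a value that depends on this floor. These saline UMIs lay in 21 of 583 members, and 131 of them in the 34 that held 60 or more interferon response UMIs per 10000 UMIs.

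Gpnmb, a glycoprotein of lysosomes and the cell surface, was higher in the cold members, at 99.6 CPM in the cold and 32.4 CPM in the saline members (1.62, 1.27 to 1.98). Txnip, the thioredoxin-binding protein that limits glucose uptake, stood at 318 CPM in the cold and 127 CPM in the saline members (1.33, 1.14 to 1.51). Cirbp, an RNA-binding protein, stood at 79.6 CPM in the cold and 27.9 CPM in the saline members (1.51, 1.12 to 1.90). Its relative Rbm3 was not called, at 369 CPM in the cold and 231 CPM in the saline members (0.67, 0.52 to 0.83). Cirbp had ratios of 1.16 in Col15a1 barcodes, 0.80 in Gdf10/Fmo2 barcodes and 0.73 outside the gate, where it stood at 77.8 CPM in the cold and 47.0 CPM in the saline library.

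Of 8 tested genes on the Gdf10/F3 stromal list 3 were called higher and 0 lower in the cold members. Chrdl1, an antagonist of BMP ligands, stood at 198 CPM in the cold and 88.0 CPM in the saline members (1.17, 0.94 to 1.40). Inmt, an amine methyltransferase, stood at 297 CPM in the cold and 143 CPM in the saline members (1.05, 0.87 to 1.24). Myoc, myocilin, stood at 202 CPM in the cold and 54.7 CPM in the saline members (1.88, 1.62 to 2.14). Its UMIs lay in 32 of 233 cold and 35 of 583 saline members. Gdf10/Fmo2 barcodes were 14.4% (11.4 to 17.9) of the cold and 6.99% (5.54 to 8.67) of the saline stromal barcodes, and the part of such cells in these levels was not tested. Igfbp3, a carrier of insulin-like growth factors, stood at 137 CPM in the cold and 52.8 CPM in the saline members (1.38, 1.09 to 1.67). Ccl2 stood at 309.8 CPM in the cold and 141 CPM in the saline members (1.13, 0.95 to 1.31). Its 510 cold UMIs lay in 52 of 233 members, with 130 of them in 3, and its 506 saline UMIs in 123 of 583 members.

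Of the 39 tested interstitial identity genes 0 were called between cold and saline, beside 1.13% of all tested genes, 11 had an interval above 0 and 11 below 0, and the median was -0.05. Has1, a hyaluronan synthase, had the lowest ratio at -0.90 (-1.02 to -0.77), and Igfbp6 the highest at 0.44 (0.39 to 0.49). The lists of elastic fibres (16 tested), Wnt signalling (15), TGF-beta and BMP signalling (20), collagens (13), immediate early genes (21) and heat shock (12) also had 0 called members.

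The comparison of CL with saline asks what 3 days of β3-adrenergic agonist did to the same cells. Of the tested genes on each list, 27 of 28 interferon response genes, 8 of 19 cytokines and chemokines and 4 of 13 acute-phase and complement genes were called higher in the CL members, and 5 of 39 genes of progenitor identity and 3 of 20 of TGF-beta and BMP signalling were called lower. Of 5355 tested genes 219 (4.09%) were called, 167 higher (3.12%) and 52 lower (0.971%), and the median of all was 0.05.

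Of 28 tested interferon response genes 27 were called higher in the CL members and 0 lower, with a median of 2.33. For cold over saline 20 of the 31 list genes were tested, so the 2 medians cover different genes. A gene could pass the limit of 20 CPM on the mean through its CL level alone, as Ifit3 did. Such a gene could only come out higher, here and in CL over cold. Isg15 stood at 804 CPM in the CL and 50.8 CPM in the saline members, a ratio of 3.98 (3.76 to 4.21). Cxcl9, a T cell attractant that interferon-gamma induces, stood at 412 CPM in the CL and 23.5 CPM in the saline members (4.13, 3.81 to 4.48). Ifit3 stood at 306 CPM in the CL and 19.3 CPM in the saline members (3.99, 3.63 to 4.37), and Ifit1 at 315 CPM in the CL and 36.0 CPM in the saline members (3.13, 2.85 to 3.41). Irf7 stood at 710.0 CPM in the CL and 129.6 CPM in the saline members (2.45, 2.30 to 2.61). Cxcl10, the member not called, stood at 353 CPM in the CL and 179 CPM in the saline members (0.98, 0.82 to 1.13). Outside the list, H2-Q7, a non-classical class I molecule, stood at 173 CPM in the CL and 16.8 CPM in the saline members (3.37, 2.97 to 3.79). H2-Q7 and Ifit3 have close copies in the genome, so how reads were split among them is uncertain.

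The same list had medians of 1.88 in Col15a1 barcodes, 2.64 in Gdf10/Fmo2 barcodes and 2.04 outside the stromal gate. RNA free in the suspension was not subtracted. Outside the gate of the CL library Isg15 stood at 967 CPM and Irf7 at 808 CPM, above their levels in the CL members, and the part of free RNA was not tested. Cxcl9 stood there at 135 CPM and Ifit3 at 233 CPM, below their levels in the CL members.

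**Figure D3:**
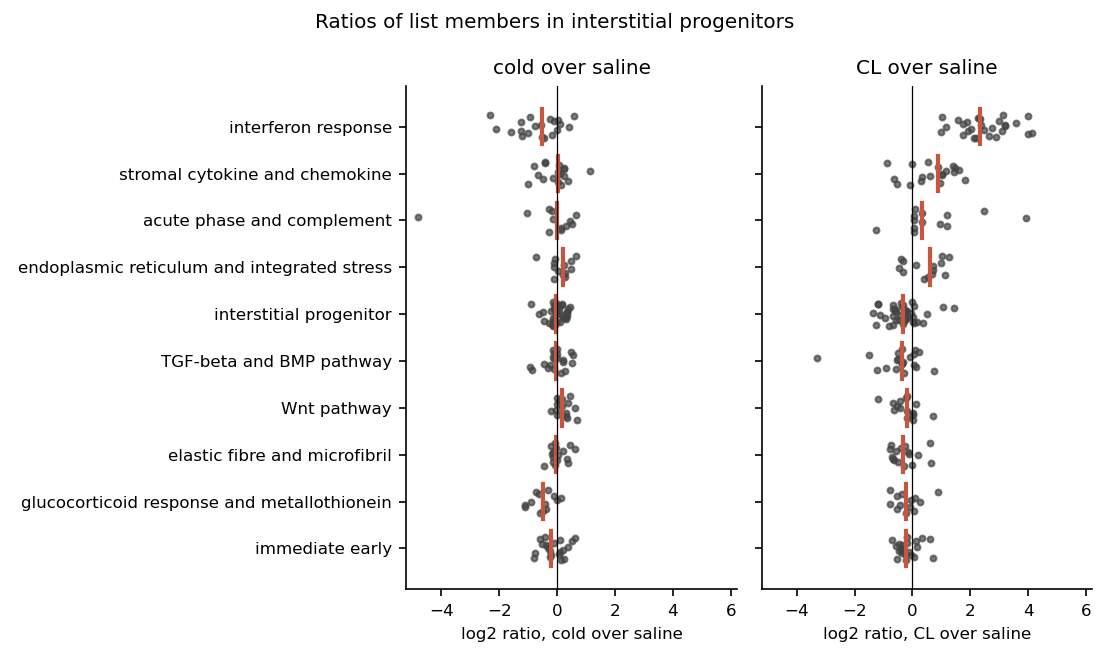
Log2 ratios of the tested members of 10 gene lists (dots) with each list's median (bars), for cold over saline on the left and CL over saline on the right. Interferon response genes have a median of -0.53 for cold (20 tested) and lie all above 0 for CL (28 tested), with a median of 2.33. Saa3 is drawn at its bound of -4.81 for cold.

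Promoters of 4 interferon response genes are shown as examples that hold an element known from this family, and were chosen for holding it. The interferon-stimulated response element, bound by IRF factors among others, was searched as 2 copies of GAAA with 2 bases of any kind between them, on both strands. The window was 250 bases before to 50 after the start of each gene in RefSeq (GRCm38.p6). It was found for 14 of the 24 interferon response genes with a promoter there, and for 3.99% of all 27025 genes, so 10 of the list had none. The sequences run 5' to 3' on the strand of the gene, with matches in capitals. They are chr4:156200769-156201068 (minus strand) for Isg15 with 3 overlapping matches, chr19:34640639-34640938 (plus strand) for Ifit1 with 2, chr19:34583279-34583578 (plus strand) for Ifit3 with 2, and chr5:92348840-92349139 (minus strand) for Cxcl10 with 1.
Isg15: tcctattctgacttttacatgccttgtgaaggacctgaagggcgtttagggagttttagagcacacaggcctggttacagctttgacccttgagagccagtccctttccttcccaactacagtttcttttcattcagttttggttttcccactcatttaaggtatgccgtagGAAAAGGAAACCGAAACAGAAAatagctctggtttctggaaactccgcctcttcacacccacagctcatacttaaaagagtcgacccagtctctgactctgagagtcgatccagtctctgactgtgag
Ifit1: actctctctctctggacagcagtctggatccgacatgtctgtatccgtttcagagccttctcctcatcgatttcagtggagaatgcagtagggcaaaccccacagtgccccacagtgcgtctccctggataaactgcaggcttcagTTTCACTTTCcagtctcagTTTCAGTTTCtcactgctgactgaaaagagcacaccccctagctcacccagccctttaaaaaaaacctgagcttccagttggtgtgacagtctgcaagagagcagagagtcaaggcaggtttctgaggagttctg
Ifit3: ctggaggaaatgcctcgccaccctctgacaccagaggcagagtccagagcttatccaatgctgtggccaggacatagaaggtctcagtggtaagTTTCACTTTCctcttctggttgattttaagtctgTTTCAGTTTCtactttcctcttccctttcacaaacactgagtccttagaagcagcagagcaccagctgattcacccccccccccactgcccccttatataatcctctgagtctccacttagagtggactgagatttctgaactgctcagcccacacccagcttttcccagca
Cxcl10: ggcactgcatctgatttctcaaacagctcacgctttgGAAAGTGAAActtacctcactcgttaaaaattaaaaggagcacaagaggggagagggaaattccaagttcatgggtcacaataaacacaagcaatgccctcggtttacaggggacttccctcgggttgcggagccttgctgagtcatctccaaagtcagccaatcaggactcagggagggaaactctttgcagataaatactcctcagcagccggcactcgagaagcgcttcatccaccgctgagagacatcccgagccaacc
In Ifit1 and Ifit3 the matches are on the opposite strand and read TTTC. Irf7, Cxcl9 and Oasl2 had 0 matches, which says only that these letters are not in the window.

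Interferon response RNA was spread unevenly over the CL members. Counted as UMIs of the 31 list genes per 10000 UMIs of a barcode, the median was 10.5 in the cold, 96.4 in the CL and 14.3 in the saline members. The quartiles were 6.76 and 14.4 in the cold, 34.0 and 149 in the CL, and 8.47 and 24.3 in the saline members. The highest member had 60.8 in the cold, 332 in the CL and 171 in the saline library, so the libraries overlapped. Among CL members 10 lay below 10, 35 between 10 and 20, and 70 at 160 or above. At or above a level of 60, set after the values were seen, lay 0.429% (0.0109 to 2.37) of the cold, 65.8% (60.6 to 70.8) of the CL and 5.83% (4.07 to 8.05) of the saline members. Between 50 and 70 lay 2 cold, 29 CL and 28 saline members, so the split marks a range and not a type. Outside the stromal gate 2.46% of the cold, 67.5% of the CL and 6.69% of the saline barcodes lay at 60 or above.

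**Figure D4:**
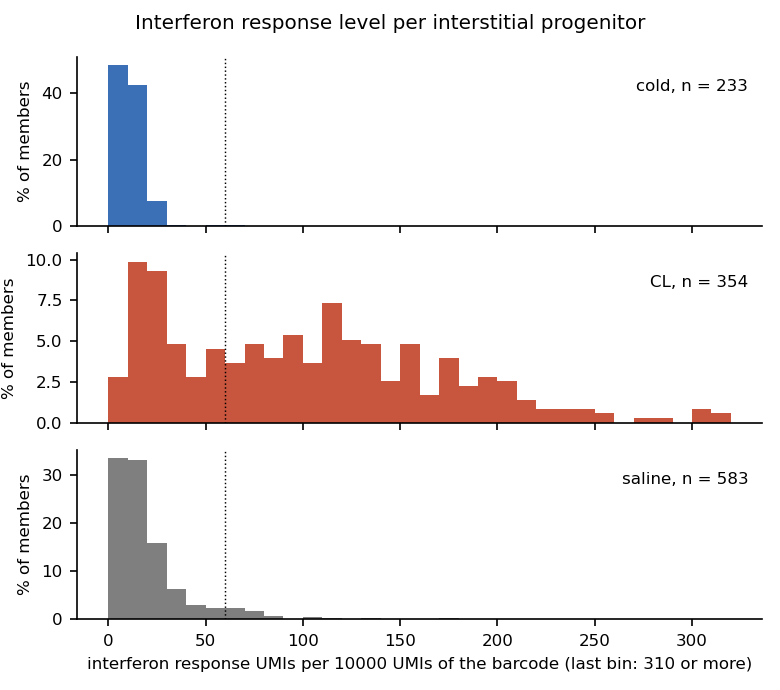
Distribution of the interferon response level, in UMIs of the list per 10000 UMIs of a barcode, over the interstitial progenitors of each library, with a line at 60. Cold members reach 60.8, CL members spread up to 332 around a median of 96.4, and 5.83% of the saline members lie at 60 or above.

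Other genes, picked after their values were seen, differed with this level inside the CL library, between the 233 members at 60 or above and the 121 below. Timp1 stood at 612 CPM in the higher and 63.0 CPM in the lower CL members (3.28, 2.81 to 3.79). Saa3 stood at 1011 CPM in the higher and 187 CPM in the lower CL members (2.43, 2.15 to 2.72). Ly6a, the surface antigen Sca-1, stood at 7333 CPM in the higher and 2948 CPM in the lower CL members (1.31, 1.24 to 1.39). Smpd3 stood at 386 CPM in the higher and 768 CPM in the lower CL members (-0.99, -1.17 to -0.81), and Sult1e1, the oestrogen sulfotransferase, at 122 CPM in the higher and 381 CPM in the lower CL members (-1.64, -1.93 to -1.35). Gas1, a surface protein that binds hedgehog ligands, stood at 157 CPM in the higher and 423 CPM in the lower CL members (-1.43, -1.69 to -1.16). Sema3c stood at 491 CPM in the higher and 564 CPM in the lower CL members (-0.20, -0.39 to -0.01). Haemoglobin Hbb-bs, which these cells should lack, stood at 1506 CPM in the higher and 1404 CPM in the lower CL members, and the median UMIs per barcode were 6002 in the higher and 4998 in the lower CL members.

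The saline library held 34 members at 60 or above and 549 below. Timp1 had 121 UMIs in the higher and 83 UMIs in the lower saline members (4.21, 3.80 to 4.63). Saa3 had 131 UMIs in the higher and 52 UMIs in the lower saline members. Ly6a stood at 4449 CPM in the higher and 2045 CPM in the lower saline members (1.12, 1.03 to 1.21), and Smpd3 at 257 CPM in the higher and 539 CPM in the lower saline members (-1.07, -1.44 to -0.72). Has1 stood at 384 CPM in the higher and 808 CPM in the lower saline members (-1.08, -1.38 to -0.79), while in the CL library its ratio was -0.18, -0.41 to 0.06, and the difference between the libraries was not tested. Hbb-bs stood at 379.7 CPM in the higher and 1041 CPM in the lower saline members.

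**Figure D5:**
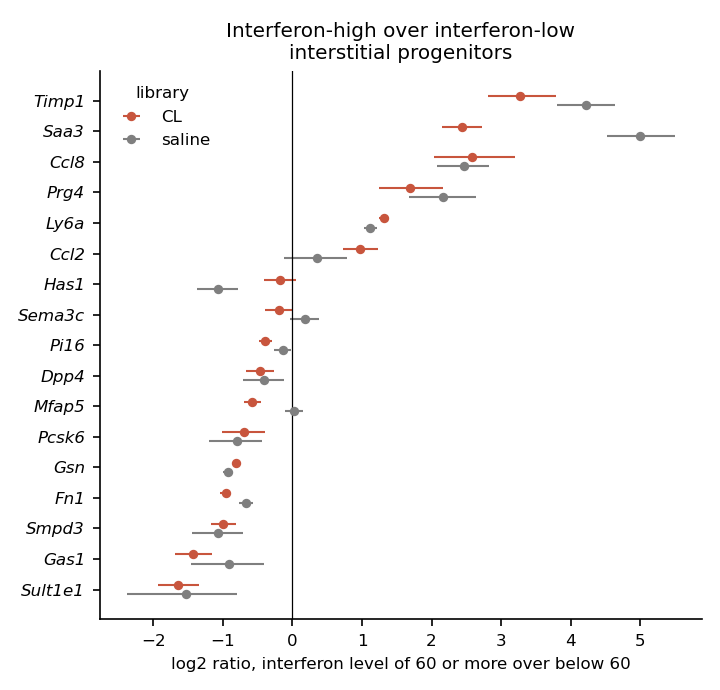
Log2 ratios, with exact conditional 95% intervals, between members with an interferon response level of 60 or more and members below 60, within the CL library (233 over 121 members) and within the saline library (34 over 549). Timp1 and Saa3 lie to the right of 0 and Smpd3 and Sult1e1 to the left of 0 in both libraries.

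Of 19 tested stromal cytokines and chemokines 8 were called higher in CL over saline and 0 lower, with a median of 0.90. Ccl2 stood at 428 CPM in the CL and 141 CPM in the saline members (1.60, 1.44 to 1.76), and at 519 CPM outside the gate of the CL library. Ccl7, another attractant of monocytes, stood at 351 CPM in the CL and 127 CPM in the saline members (1.47, 1.30 to 1.64). Ccl8 stood at 209.9 CPM in the CL and 79.6 CPM in the saline members (1.40, 1.18 to 1.62). Vcam1, an adhesion molecule for leukocytes, stood at 32.4 CPM in the CL and 9.22 CPM in the saline members (1.82, 1.19 to 2.46). It was also counted here among the markers of committed preadipocytes. Of 10 tested genes of the committed preadipocyte list 2 were called higher and 1 lower, with a median of -0.15. Over all tested genes 4.09% were called.

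Of 13 tested acute-phase and complement genes 4 were called higher and 1 lower. Saa3 stood at 766 CPM in the CL and 51.1 CPM in the saline members (3.91, 3.68 to 4.14), and at 3654 CPM outside the gate of the CL library, and the part of free RNA in it was not tested. Cfb, complement factor B, stood at 133 CPM in the CL and 23.7 CPM in the saline members (2.48, 2.13 to 2.85). Lbp, which binds bacterial lipopolysaccharide, stood at 604 CPM in the CL and 262 CPM in the saline members (1.21, 1.08 to 1.33), and at 31.7 CPM outside the gate of the CL library. Serpina3n, a protease inhibitor, stood at 132 CPM in the CL and 57.3 CPM in the saline members (1.21, 0.94 to 1.48).

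Calls on the matrix lists are set beside the 4.09% called over all 5355 tested genes. Of 20 tested matrix proteases and inhibitors 2 were called higher and 0 lower (median -0.12), of 11 hyaluronan and proteoglycan genes 1 was called higher and 1 lower, and of 13 collagens and 16 elastic fibre genes 0 were called. Timp1 stood at 449 CPM in the CL and 57.0 CPM in the saline members, a ratio of 2.98, and at 98.8 CPM outside the gate of the CL library. Prg4 stood at 199.6 CPM in the CL and 53.6 CPM in the saline members (1.90, 1.64 to 2.15). Ly6a stood at 6033 CPM in the CL and 2220.3 CPM in the saline members (1.44, 1.40 to 1.48), and Ly6c1 at 2158 CPM in the CL and 1037 CPM in the saline members (1.06, 0.99 to 1.12). Chl1, a cell adhesion molecule, had 85 UMIs in the CL and 3 UMIs in the saline members (5.64, 4.04 to 7.95). Il18bp, which neutralises interleukin 18, stood at 71.8 CPM in the CL and 6.14 CPM in the saline members (3.55, 2.89 to 4.26). Of 14 tested genes of endoplasmic reticulum stress 3 were called higher and 0 lower, among them Pdia4, a disulfide isomerase, at 122 CPM in the CL and 56.7 CPM in the saline members (1.11, 0.84 to 1.39).

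Of the 39 tested interstitial identity genes 5 were called lower and 2 higher (Ly6a and Ly6c1), 26 had an interval below 0 and 4 above 0, and the median was -0.34. The same genes had medians of -0.36 in Col15a1 barcodes, -0.10 in Gdf10/Fmo2 barcodes and -0.36 outside the stromal gate. Lower medians were thus not particular to the members, although over all other stromal barcodes together the median was 0.29. These included the CL barcodes that only the Lcn2 and Cxcl5 limit kept out, and their part was not tested. Igfbp5, a carrier of insulin-like growth factors (ENSMUSG00000026185, chr1:72857932-72874884, minus strand), stood at 1650.0 CPM in the CL and 3935 CPM in the saline members (-1.25, -1.31 to -1.20). Has1 stood at 338 CPM in the CL and 777 CPM in the saline members (-1.20, -1.33 to -1.08). Pcsk6 had a ratio of -1.12 (-1.29 to -0.95), and Dact2, a modulator of Wnt and TGF-beta signalling, of -1.19 (-1.60 to -0.81). Sema3c (-0.48), Mfap5 (-0.69) and Smpd3 (-0.05, -0.17 to 0.06) were not called.

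Of 20 tested genes of the TGF-beta and BMP list 3 were called lower and 0 higher, with a median of -0.36. That list had medians of -0.33 in Col15a1 barcodes, -0.18 in Gdf10/Fmo2 barcodes and -0.56 outside the gate. Tgfbi, a matrix protein induced by TGF-beta, stood at 39.3 CPM in the CL and 112 CPM in the saline members (-1.51, -1.87 to -1.16). Bmp2 stood at 24.6 CPM in the CL and 58.1 CPM in the saline members (-1.24, -1.72 to -0.79). Cilp, a cartilage matrix protein, had a ratio of -3.30 but its UMIs came from 6 CL and 14 saline members. Outside the list, Socs3, a feedback inhibitor of cytokine receptors, stood at 255 CPM in the CL and 623 CPM in the saline members (-1.29, -1.43 to -1.15). Gadd45a, a growth arrest gene, stood at 16.2 CPM in the CL and 64.5 CPM in the saline members (-1.99, -2.56 to -1.46). Irs2 stood at 70.8 CPM in the CL and 177 CPM in the saline members (-1.32, -1.60 to -1.06). The cold and the CL members were both set against the same saline library.

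Between the treatments, CL over cold, 287 of 5406 tested genes (5.31%) were called, 195 higher (3.61%) and 92 lower (1.7%). Interferon response genes were called higher for 27 of 28, with a median of 3.10, and Ifit2 was the exception (0.42, -0.05 to 0.89). Timp1 stood at 449 CPM in the CL and 10.9 CPM in the cold members (5.36, 4.69 to 6.12). Itgbl1, a secreted protein with integrin-like repeats, stood at 14.3 CPM in the CL and 101 CPM in the cold members (-2.82, -3.44 to -2.25). Tgfbi stood at 39.3 CPM in the CL and 163 CPM in the cold members (-2.05, -2.43 to -1.68). Omd, osteomodulin, stood at 20.6 CPM in the CL and 102 CPM in the cold members (-2.31, -2.83 to -1.81), and Itgb7, an integrin chain, at 25.6 CPM in the CL and 130.0 CPM in the cold members (-2.35, -2.81 to -1.90).

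List calls for CL over cold are set beside the 3.61% called higher and 1.7% called lower over all 5406 tested genes. Of 16 tested Wnt genes 3 were called lower in CL over cold and 0 higher, with a median of -0.50. They were Dact2 (-1.37, -1.81 to -0.94) and the Wnt-binding proteins Sfrp4, at 129 CPM in the CL and 267 CPM in the cold members (-1.05, -1.27 to -0.82), and Sfrp1, at 44.2 CPM in the CL and 91.1 CPM in the cold members (-1.04, -1.44 to -0.66). Sema3e, a repulsive guidance cue, stood at 59.5 CPM in the CL and 131 CPM in the cold members (-1.13, -1.47 to -0.81). Of the 39 interstitial identity genes 6 were called lower and 3 higher, with a median of -0.40. The same genes had medians of -0.14 in Col15a1 barcodes, 0.13 in Gdf10/Fmo2 barcodes and -0.26 outside the gate. Over all other stromal barcodes together, including those that only the Lcn2 and Cxcl5 limit kept out, the median was 0.61. Of 11 tested hyaluronan and proteoglycan genes 3 were called higher and 0 lower. Among these, Vcan, versican, stood at 466 CPM in the CL and 208 CPM in the cold members (1.16, 0.98 to 1.35). Cd44, also among them, stood at 59.0 CPM in the CL and 19.4 CPM in the cold members (1.60, 1.03 to 2.21). By the same limits 3 genes of this list were higher in Col15a1 barcodes, 4 in Gdf10/Fmo2 barcodes and 3 outside the gate. Of 13 tested collagens 2 were called higher and 0 lower. Col5a3, among them, stood at 275 CPM in the CL and 123 CPM in the cold members (1.16, 0.92 to 1.40). By the same limits 2 collagens were higher in Col15a1 barcodes, 0 in Gdf10/Fmo2 barcodes and 0 outside the gate.

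Within each library the members varied most in a few genes. After each barcode was thinned to 3000 UMIs, which left 226 cold, 330 CL and 550 saline members, the 10 genes with the highest variance over mean included Igfbp5, Gsn, Sparc, Cxcl1, Ccl2, Ptx3 and Myoc. Igfbp5 had a variance over mean of 12.6 in the cold, 5.60 in the CL and 10.4 in the saline members. The median gene had 1.03, a single value that does not tell the libraries apart. Ccl2 had 6.80 in the cold, 7.11 in the CL and 4.71 in the saline members. Ptx3, a soluble pattern receptor, had 7.60 in the cold, 6.37 in the CL and 3.55 in the saline members, and Myoc had 9.64 in the cold, 5.53 in the CL and 8.56 in the saline members. The lowest values of this measure lay in the CL members for Igfbp5 and Myoc and in the saline members for Ptx3. Each of these genes also had its lowest mean in that library. In UMIs per thinned barcode the mean was 4.89 for Igfbp5 and 0.0818 for Myoc in the CL members. For Ptx3 it was 0.542 in the saline members. The part of the level in this measure was not tested, so a lower value is not read as lower variability between cells.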

How the data were processed

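The authors deposited raw UMI counts for each gene in each barcode, made with Cell Ranger 3.0.2 per the file headers and with build mm10 per the submitters' processing notes. Cell calling is not given in the sources used here. UMIs were summed over the members of each library and scaled to CPM, with exact Poisson (levels), Clopper-Pearson (shares) and conditional binomial (ratios) intervals at 95% and a normal approximation for ratios of shares. Where a library had 0 counts, a floor of 3 counts was set. The 14 genes of the rule were not tested. Free RNA was not subtracted. The genes named are a selection from the 8 highest and 8 lowest called genes of each treatment against saline and 4 and 4 of CL over cold, ranked by the interval bound nearer 0 (mitochondrial, ribosomal, haemoglobin and sex-linked genes and those led by free RNA or 3 cells left out), the 6 markers, up to 4 members of each of 26 lists, 12 leading genes over other stromal barcodes and 10 variable genes. Members and lists were chosen with earlier results of these data known. Receptor and thermogenic genes and those compared at the split of the interferon level, or in the left-out barcodes, were picked after their values were seen. Scrublet (scanpy 1.11.5) marked 4 cold, 64 CL and 86 saline barcodes, of which 0, 0 and 4 were members. They stayed in, and 4 of 3862 cold barcodes is too few to say that doublets were found there. The calculations were tested on simulated data and repeated under other filters, thresholds, depths and scalings. Values of some single genes counted in the lists are not reported here. Gene coordinates are from GENCODE M21. Python 3.11.15 and scipy 1.17.1 were used.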

Additional observations from a re-analysis of the deposited data

Results flagged for a closer look

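Each of these genes differed at least 2-fold in interstitial progenitors, and at least 2-fold the other way in another stromal population of the same libraries, with both intervals leaving out equality. Values are differences of log2 ratios, and with 1 library per group the difference was not tested for any of them. For cold over saline, Cxcl9 differed by -3.97 between interstitial progenitors (8 cold and 84 saline UMIs) and Col15a1 barcodes (202 cold and 134 saline UMIs). Its mean was under 20 CPM in the members, so it was not among the tested genes, and 1 cold Col15a1 barcode held 137 of the 202 UMIs. Timp1 differed for cold over saline by -4.64 between interstitial progenitors (18 cold and 204 saline UMIs) and Col15a1 barcodes (113 cold and 51 saline UMIs). Of these, 1 cold Col15a1 barcode held 88 of the 113 UMIs and 1 saline member 49 of the 204. Ccl2 differed for cold over saline by 2.62 between interstitial progenitors (510 cold and 506 saline UMIs) and Gdf10/Fmo2 barcodes (39 cold and 104 saline UMIs). Of the 510 UMIs 130 lay in 3 members, and the 39 lay in 10 of 71 barcodes. Sfrp1 differed for CL over cold by -2.68 between interstitial progenitors (90 CL and 150 cold UMIs) and Col15a1 barcodes (27 CL and 6 cold UMIs). Nr4a2, an immediate early nuclear receptor, differed for CL over cold by 2.64 between interstitial progenitors (169 CL and 49 cold UMIs) and Gdf10/Fmo2 barcodes (9 CL and 33 cold UMIs). Cd74, the invariant chain of class II molecules, differed for CL over saline by -2.93 between interstitial progenitors (27 CL and 151 saline UMIs) and Col15a1 barcodes (45 CL and 28 saline UMIs), and it stood at 2599 CPM outside the stromal gate of the CL and 4663 CPM outside that of the saline library. Of the saline UMIs 61 lay in 1 member. The ratio in the members, -1.67, moved to -0.35 (-1.06 to 0.33) without doublets marked by Scrublet, to -0.78 (-1.85 to 0.20) without barcodes that held markers of other cell types and to -0.44 (-0.82 to -0.07) with no limit on Lcn2 and Cxcl5, and Cd74 was not called in any of these.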

How the results depend on the processing

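No paired analysis was possible because each group was 1 library. Of 27 values of the share ratios under other settings, 22 lay within the interval of the reported one. As shares of all barcodes that passed the gene and mitochondrial limits, the log2 ratio was -0.62 for cold over saline and -0.82 for CL over saline. With Pi16 and Dpp4 both detected it was -0.44 for CL over cold. With no limit on Lcn2 and Cxcl5, added after seeing the data, it turned to 0.10 for CL over saline and 0.29 for CL over cold. Called genes at a mean of at least 50 CPM were 12 higher and 14 lower for cold over saline, 93 higher and 17 lower for CL over saline, 109 higher and 42 lower for CL over cold. With no filter on low genes they were 216 higher and 146 lower for cold over saline, 462 higher and 199 lower for CL over saline, 443 higher and 309 lower for CL over cold. Thinning to 3000 UMIs gave 63 higher for cold over saline, and no limit on Lcn2 and Cxcl5 gave 80 lower for CL over saline and 142 lower for CL over cold. The other 57 of 72 counts stayed within 1.5 times of those reported. Of 824 list medians 808 moved by at most 0.25. Cd74 for cold over saline turned to 0.10 (-0.80 to 0.94) without barcodes that held 3 or more UMIs of markers of other cell types, where markers of red cells and of stromal populations were not counted. No other named gene that was called changed sign under a setting that was run. Except where shown above by the setting itself, the cause of these changes was not tested. Genes with few UMIs, such as Ifit1 in the cold members, are limited by depth.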

Other observations

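Adrb3, the receptor that CL acts on, was at 0 UMIs in the cold, CL and saline members, which allows up to 1.82, 1.47 and 0.838 CPM at 3 counts. Adrb1 was at 0 UMIs as well. Adra1b, an α1-adrenergic receptor, stood at 42.5 CPM (33.1 to 53.7) in the cold, 34.9 CPM (27.3 to 44.0) in the CL and 50.6 CPM (43.5 to 58.5) in the saline members, and at 1.69, 1.49 and 2.42 CPM outside the gate. A low level of a receptor was not detectable at this depth.

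Ucp1, the uncoupling protein of thermogenic fat, had 1 UMI in the cold, 0 in the CL and 0 in the saline members, while barcodes outside the gate had 145 UMIs in the cold, 28 in the CL and 9 in the saline library. Ppargc1a and Dio2 were at 0 UMIs in the members of each library. Pparg, the master regulator of adipogenesis, had 4 UMIs in the cold, 5 in the CL and 10 in the saline members. Ebf2, a transcription factor known from brown and beige precursors, stood at 309.8 CPM (283 to 338) in the cold, 284 CPM (261 to 308) in the CL and 381 CPM (361 to 401) in the saline members, and at 17.4, 16.2 and 22.3 CPM outside the gate. Tmem26, used as a beige marker, stood at 13.4 CPM in the cold, 41.3 CPM in the CL and 9.22 CPM in the saline members. In Col15a1 barcodes Tmem26 stood at 18.8 CPM in the cold, 32.5 CPM in the CL and 14.8 CPM in the saline library. Ebf2 stood there at 159, 201 and 182 CPM in the same order.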
